A study of Mus musculus with 3 samples.

Results

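The 46 genes described here encode proteins of mitosis and of the G2 phase before it. They were taken by name from the 28692 named genes of the count matrices, and all 46 were found. They were read in TEa cells, CD4 T cells whose transgenic receptor recognises the BALB/c I-Eα alloantigen. Naive TEa cells carrying a congenic mark had been given to C57BL/6 mice, BALB/c hearts were then transplanted, and the transferred cells were sorted on day 7. The 3 droplet libraries, 1 for each group, held wild-type cells from the heart allograft, wild-type cells from the spleen and Ldha-/- cells from the spleen. Gene names for the Ldha-/- library were not used here, so that library was not analysed here. How many mice were pooled in a library is not given in the sources used here. No test was possible at 1 library a group, and effects of tissue and of library cannot be told apart.

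After filtering, 3986 heart cells remained, at a median depth of 8236 unique molecular identifiers (UMIs), and 6568 spleen cells, at 7988 UMIs. The libraries summed to 42254366 and 56233997 UMIs in these cells and shared 6 cell barcodes. T cell markers summed to 13733 CPM (counts scaled to the same UMI total in each library) in heart and 13377 CPM in spleen, and Cd4 was at 144 and 208 CPM. Erythroid markers differed most among the other cell types, at 0.0947 CPM in heart, with 4 of 7 markers at 0, and 206 CPM in spleen, with none at 0. Monocyte or macrophage markers summed to 342 CPM in heart against 213 CPM in spleen, of which Ctss made up 206 and 129.6 CPM. All 6 cardiomyocyte markers were at 0 in heart.

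Cells enter mitosis when Cdk1, bound to cyclin A or cyclin B, becomes active, and they leave it when the anaphase-promoting complex marks the cyclins for destruction. Between these steps chromosomes condense, kinetochores attach to spindle microtubules, and a checkpoint delays separation until all are attached. The genes of these steps are transcribed late in the cell cycle, so their transcripts mark dividing cells, among them T cells that divide after meeting antigen. Many such promoters carry a CHR element (TTTGAA), read by the MuvB core of the DREAM complex, and CCAAT boxes, read by NF-Y.

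Promoters of 37 of the 46 genes were matched in RefSeq on GRCm38.p6, and the 250 bases before each start were searched on both strands. TTTGAA was found in 13 of 37 (35.1%), against 16.3% of all 27025 promoters. The variants TTTAAA and TTCGAA were found in 6 (16.2%, against 12.1%) and 2 (5.41%, against 1.34%) of the 37. CCAAT was found in 28 of 37 (75.7%), against 34.5%. At least 2 CCAAT were found in 54.1% of the 37 and in 10.5% of all. TTTGAA and CCAAT stood together in 12 of the 37 (32.4%), against 5.73%. The 150 bases before the start of 4 genes are printed below 5′ to 3′ on the coding strand, with both motifs and their reverse complements in capitals. Ccnb2 was among the genes with the highest ratios of heart to spleen, Cdk1 and Ube2c held several matches, and Bub3 was 1 of only 2 of the genes that were lower in heart.
Ccnb2, chr9:70421555-70421704, minus strand: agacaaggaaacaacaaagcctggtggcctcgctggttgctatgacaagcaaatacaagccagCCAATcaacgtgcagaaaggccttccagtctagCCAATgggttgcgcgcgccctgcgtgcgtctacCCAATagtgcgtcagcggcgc
Cdk1, chr10:69352913-69353062, minus strand: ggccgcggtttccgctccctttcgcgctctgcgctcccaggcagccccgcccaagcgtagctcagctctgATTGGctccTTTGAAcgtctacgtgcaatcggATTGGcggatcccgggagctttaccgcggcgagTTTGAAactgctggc
Ube2c, chr2:164769779-164769928, plus strand: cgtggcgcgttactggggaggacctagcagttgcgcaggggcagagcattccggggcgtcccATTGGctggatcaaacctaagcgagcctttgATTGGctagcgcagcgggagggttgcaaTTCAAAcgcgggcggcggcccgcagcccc
Bub3, chr7:131560220-131560369, plus strand: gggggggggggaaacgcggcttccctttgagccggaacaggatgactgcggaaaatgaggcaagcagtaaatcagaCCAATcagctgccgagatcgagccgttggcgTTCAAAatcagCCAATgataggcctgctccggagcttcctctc
In Ccnb2 the CCAAT matches began 87, 54 and 21 bases before the start, and in Bub3 they began 74 and 32 bases before it. Ccnb2 also held a TTTGAA match 167 bases before the start, outside the 150 bases printed. A match describes letters in this window and not a bound site. Bub3, whose level was near equal between tissues, held the same 2 motifs as Cdk1.

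Nearly all the genes were higher in cells from the heart allograft when whole libraries were compared. Of the 46, 44 were higher in heart and 2 were lower, and under the other settings tried 41 to 44 were higher, with 42 on the scale without abundant transcripts given below. At least 2-fold higher were 25 of 46 (54.3%), against 8.98% of the 7992 genes with a mean of at least 5 CPM over the libraries. None was at least 2-fold lower (Smc4 was on that other scale), where 10.5% of those genes were. Without the deepest cells (those past 3 times their library median) 1 gene was at least 2-fold lower. As mean per-cell CPM and with each cell thinned to 4000 UMIs 1 was also, and at 1000 UMIs 2 were. The median log2 ratio of (CPM + 1), heart over spleen, was 0.96 over the 46 genes and -0.14 over the 7992. The mean of 40 of the 46 genes reached 5 CPM, and their median was 1.04. Transcripts of the 46 genes summed to 2437 CPM in heart against 1254 CPM in spleen. These are values of pooled cells, in which more dividing cells and more RNA per dividing cell cannot be told apart.

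The count depended on the settings, most on the mitochondrial limit. Among cells with at most 5% mitochondrial UMIs in place of at most 10%, 15 of the 46 genes were at least 2-fold higher and the median was 0.67. Of the cells with at least 4000 UMIs, 96.3% of heart cells but 67.7% of spleen cells met the stricter limit. When UMIs of mitochondrial genes, ribosomal protein genes and Malat1 were taken out of the totals, the median of all genes moved from -0.14 to -0.32 and that of the 46 genes to 0.85. The share of higher genes among all genes at least 2-fold apart then moved from 46.1% to 31.1%. Kif20b was at -0.14 and Mxd3 at -0.06 on that scale, so that 42 of the 46 were higher. At least 2-fold higher were 19 on that scale, 17 without the deepest cells, and 24 to 28 under the remaining settings.

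**Figure D1:**
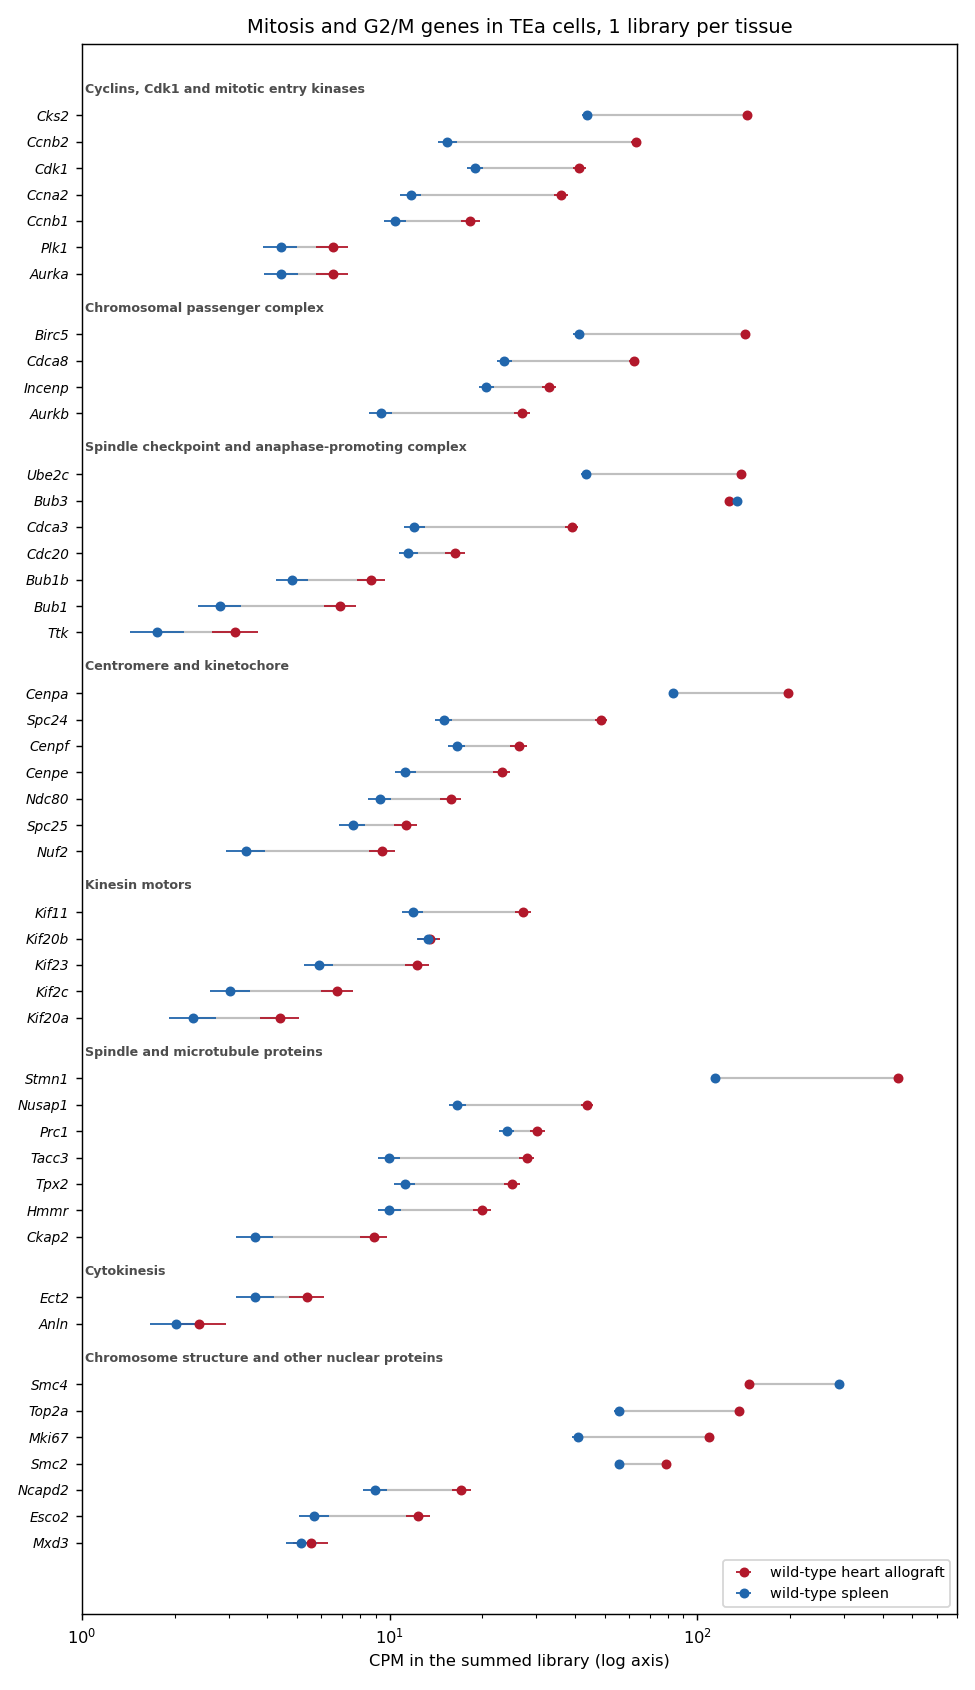
Level of each of the 46 genes in the wild-type heart allograft library (red) and the wild-type spleen library (blue), as CPM on a log axis, grouped by role; bars are exact 95% Poisson intervals of counting error. The red point lies to the right for 44 genes (42 with totals lacking mitochondrial, ribosomal protein and Malat1 UMIs), and to the left for Bub3 (127 and 135 CPM) and Smc4 (147 and 288 CPM).

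The cyclins, Cdk1 and the kinases of mitotic entry were higher in heart in 7 of 7 genes, 4 of them at least 2-fold. Intervals in parentheses are exact 95% intervals that cover counting error only. Ccnb2, a B-type cyclin (on chromosome 9 from 70407692 to 70421547 on GRCm38), was at 63.0 CPM (60.7 to 65.5) in heart against 15.4 CPM (14.4 to 16.5) in spleen. Its log2 ratio was 1.96, and the ratio of the libraries had an interval of 3.78 to 4.41. Cks2, a small subunit that binds Cdk1, was at 145 CPM (141 to 148) in heart against 43.8 CPM (42.1 to 45.6) in spleen. Ccna2, the A-type cyclin, had a log2 ratio of 1.55, and Cdk1 itself one of 1.09. Ccnb1, the main partner of Cdk1 in mitosis (on chromosome 13 from 100778650 to 100786570), was at 18.3 CPM (17.0 to 19.6) in heart against 10.4 CPM (9.61 to 11.3) in spleen. The 2 B-type cyclins thus had different ratios, 1.75 for Ccnb1 (1.57 to 1.95) and 4.08 for Ccnb2. Plk1 and Aurka, kinases of centrosome and spindle assembly, were each at 6.53 CPM in heart, with 4.43 and 4.45 CPM in spleen. Their log2 ratios of 0.47 were the lowest of this group.

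The chromosomal passenger complex, which corrects faulty attachments and later directs cleavage, was higher in heart in 4 of 4 genes, 3 of them at least 2-fold. Birc5, its survivin subunit (on chromosome 11 from 117849251 to 117855743), was at 143 CPM (139 to 146) in heart against 41.2 CPM (39.5 to 42.9) in spleen. Its log2 ratio of 1.77 was the highest of the complex. Cdca8 (borealin) was at 62.2 and 23.6 CPM, and the kinase Aurkb at 26.9 and 9.37 CPM. Incenp, the scaffold, was at 33.0 CPM (31.3 to 34.8) in heart against 20.6 CPM (19.5 to 21.9) in spleen, the lowest log2 ratio of the 4 at 0.65.

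Genes of the spindle checkpoint and the anaphase-promoting complex were less uniform, with 6 of 7 higher and 3 at least 2-fold higher. Ube2c, the ubiquitin-conjugating enzyme that works with the complex (on chromosome 2 from 164769898 to 164778822), was at 139 CPM (136 to 143) in heart against 43.5 CPM (41.8 to 45.2) in spleen. Cdca3, a factor of mitotic entry, was at 39.0 and 12 CPM. The checkpoint kinase Bub1 was at 6.91 and 2.81 CPM, Bub1b at 8.71 and 4.82 CPM, and Ttk at 3.15 and 1.76 CPM. Cdc20, the activator that the checkpoint holds back, was at 16.3 CPM (15.1 to 17.6) in heart against 11.5 CPM (10.7 to 12.4) in spleen. Bub3, a checkpoint adaptor, was at 127 CPM (124 to 131) in heart against 135 CPM (132 to 138) in spleen. Its log2 ratio was -0.09.

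Centromere and kinetochore genes were higher in heart in 7 of 7, with 4 at least 2-fold. Cenpa, the histone H3 variant of centromeres (on chromosome 5 from 30666777 to 30674830), was at 197 CPM (193 to 201) in heart against 83.4 CPM (81.0 to 85.8) in spleen. The NDC80 complex, which holds microtubule ends, was uneven across its 4 subunits. Spc24 was at 48.7 CPM (46.6 to 50.9) in heart against 15 CPM (14.0 to 16.0) in spleen, a log2 ratio of 1.64, and Nuf2 had a log2 ratio of 1.25. Ndc80 had one of 0.70, and Spc25 one of 0.52, with 11.3 CPM (10.3 to 12.3) in heart against 7.58 CPM (6.87 to 8.33) in spleen. The intervals of the library ratios of Spc24 (3.00 to 3.53) and Spc25 (1.30 to 1.70) did not overlap. Cenpe, a kinetochore motor, and Cenpf, a large kinetochore protein, had log2 ratios of 0.98 and 0.64.

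Among the 5 kinesins, 3 were at least 2-fold higher in heart. Kif11, which pushes the spindle poles apart, was at 27.1 CPM (25.5 to 28.7) in heart against 11.9 CPM (11 to 12.8) in spleen. Kif23, a motor of the central spindle, was at 12.3 and 5.89 CPM, and Kif2c, which shortens microtubules at centromeres, at 6.74 and 3.04 CPM. Kif20a was at 4.40 and 2.29 CPM. Kif20b did not differ beyond counting error, at 13.5 CPM (12.4 to 14.6) in heart against 13.3 CPM (12.3 to 14.3) in spleen. Its direction turned under other settings, to a log2 ratio of -0.88 with each cell thinned to 1000 UMIs, -0.30 at 4000 UMIs, -0.29 as mean per-cell CPM, -0.28 without the deepest cells (those past 3 times their library median) and -0.15 at most 5% mitochondrial UMIs.

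Spindle and microtubule proteins had the highest ratio of summed levels among the role groups, 605 CPM in heart over 189.6 CPM in spleen, with 5 of 7 genes at least 2-fold higher. Most of that sum was Stmn1 (on chromosome 4 from 134468320 to 134473843), a protein that destabilises microtubules. It was at 449 CPM (443 to 456) in heart against 114 CPM (111 to 117) in spleen, and its log2 ratio of 1.97 was the highest of the 46. Nusap1, a microtubule bundler, was at 43.7 CPM (41.8 to 45.8) and 16.6 CPM (15.6 to 17.7). Tacc3 had a log2 ratio of 1.39, Tpx2 and Ckap2 of 1.09 each, and Hmmr of 0.93. Prc1, which cross-links the midzone at anaphase, was at 30.2 CPM (28.6 to 31.9) in heart against 24.0 CPM (22.7 to 25.3) in spleen, the lowest log2 ratio of this group at 0.32.

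The 2 cytokinesis genes were low in both libraries, under a mean of 5 CPM. Ect2, which activates RhoA at the cleavage site, was at 5.37 CPM (4.70 to 6.12) in heart against 3.66 CPM (3.18 to 4.20) in spleen. Anln (anillin) was at 2.41 CPM (1.97 to 2.93) and 2.03 CPM (1.67 to 2.44), which did not differ beyond counting error.

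Chromosome structure genes split. Mki67, the Ki-67 protein of the chromosome surface (on chromosome 7 from 135689784 to 135716361), was at 109 CPM (106 to 112) in heart against 40.8 CPM (39.2 to 42.6) in spleen. Top2a, the topoisomerase that untangles sister DNA (on chromosome 11 from 98992943 to 99024189), was at 137 CPM (134 to 141) and 55.6 CPM (53.6 to 57.6). Esco2, a cohesin acetyltransferase, and Ncapd2, a condensin subunit, had log2 ratios of 1.0 and 0.86. The core condensin subunits Smc2 and Smc4 differed from these. Smc2 was at 79.3 CPM (76.6 to 82.0) in heart against 55.7 CPM (53.8 to 57.7) in spleen, while Smc4 (on chromosome 3 from 69004738 to 69034623) was at 147 CPM (143 to 151) in heart against 288 CPM (284 to 293) in spleen. The log2 ratio of Smc4 was -0.97, with an interval of the library ratio of 0.495 to 0.525. Smc2 and Smc4 are partners in 1 complex, yet their library ratios lay on either side of 1, although Smc2 was at -0.18 with each cell thinned to 1000 UMIs and at -0.02 at 4000 UMIs, the second a setting added after seeing the data. Mxd3, a MAX-binding repressor, was at 5.54 and 5.17 CPM and did not differ beyond counting error. It was at -0.32 with each cell thinned to 1000 UMIs and at -0.22 at most 5% mitochondrial UMIs.

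Cells with at least 1 UMI of Top2a or Ccnb1, called gated cells here, were then read apart. They numbered 1064 of 3986 heart cells, or 26.7% (25.3 to 28.1%), and 1116 of 6568 spleen cells, or 17.0% (16.1 to 17.9%). Detection depends on depth, and gated cells were deeper, with medians of 13046 UMIs in heart and 8780.0 UMIs in spleen against 7706 and 7862 outside the gate. With each cell thinned to 4000 UMIs the shares were 17.0% (15.8 to 18.2%) of 3899 heart cells and 9.78% (9.07 to 10.5%) of 6494 spleen cells. The 87 heart and 74 spleen cells with fewer UMIs were left out. At 1000 UMIs per cell the shares were 6.15% and 3.58%, and 4.85% in the removed cluster of 103 cells with monocyte or macrophage markers. Those cells also held T cell transcripts, so they are no clean negative. In barcodes with under 100 UMIs, which hold free RNA, the 46 genes summed to 2063 CPM in heart against 1025 CPM in spleen, close to the levels in cells.

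The gate also took cells with low levels of the other genes. The wild-type cells fell into 8 kept clusters, and cluster 5 alone had high levels of these genes (6473 CPM summed in heart and 11352 CPM in spleen). In every other cluster of either library, Top2a was at 16.0 to 23.6 CPM and 9.71 to 12.7% of cells held exactly 1 Top2a UMI. Cluster 5 held 589 heart cells and 180 spleen cells. It held 47.1% of the gated cells of the heart library but 15% of those of the spleen library, and 80.7% and 50.6% of all UMIs of the 46 genes. Mki67 was at 331 CPM in the heart cells and 620.1 CPM in the spleen cells of cluster 5, and at 3.21 to 13.1 CPM in the other clusters. These genes took part in the clustering, so the values describe the clusters and test nothing.

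Transcripts of most of the genes were read in gated cells. Leaving out the 2 genes of the gate, the median gene had 92.3% of its heart UMIs and 86.3% of its spleen UMIs there, while gated cells held 40.8% and 20.8% of all UMIs. Ccna2 had 98.6% in each library, and Esco2 99.4% and 99.7%. Other genes were also read outside the gate, and 8 of 44 had under 60% of their spleen UMIs in gated cells. Bub3 had 51.7% in heart and 26.3% in spleen, Smc4 66.5% and 24.9%, Cenpa 60.8% and 42.2%, Incenp 76.4% and 48.8%, and Smc2 91.3% and 50.2%. The other 3 were Kif20b, Ndc80 and Ncapd2.

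Outside the gate the 46 genes summed to 723 CPM in heart against 628 CPM in spleen, where Top2a and Ccnb1 are at 0 by the choice of cells. Of the other 44, 19 were at least 2-fold higher (8.39% of all genes) and 3 at least 2-fold lower (12.9% of all genes). Most of these levels were low, and of the 15 genes with a mean of at least 5 CPM there, 6 were at least 2-fold higher. Smc4 was at 83.2 CPM (79.6 to 86.8) in heart against 273 CPM (268 to 278) in spleen there. Smc2 was at 11.7 and 35.0 CPM, and Kif20b at 2.72 and 8.06 CPM. These 3 were the genes at least 2-fold lower outside the gate. In the opposite direction, Ube2c was at 51.1 CPM (48.3 to 54.0) and 4.04 CPM (3.47 to 4.68), and Cks2 at 103 and 21.4 CPM. At 1000 UMIs per cell Smc4 was seen in 23.2% of spleen cells, 10.1% of heart cells and 4.85% of the removed cluster. At 4000 it was seen in 57.1% and 31.7% of spleen and heart cells.

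**Figure D2:**
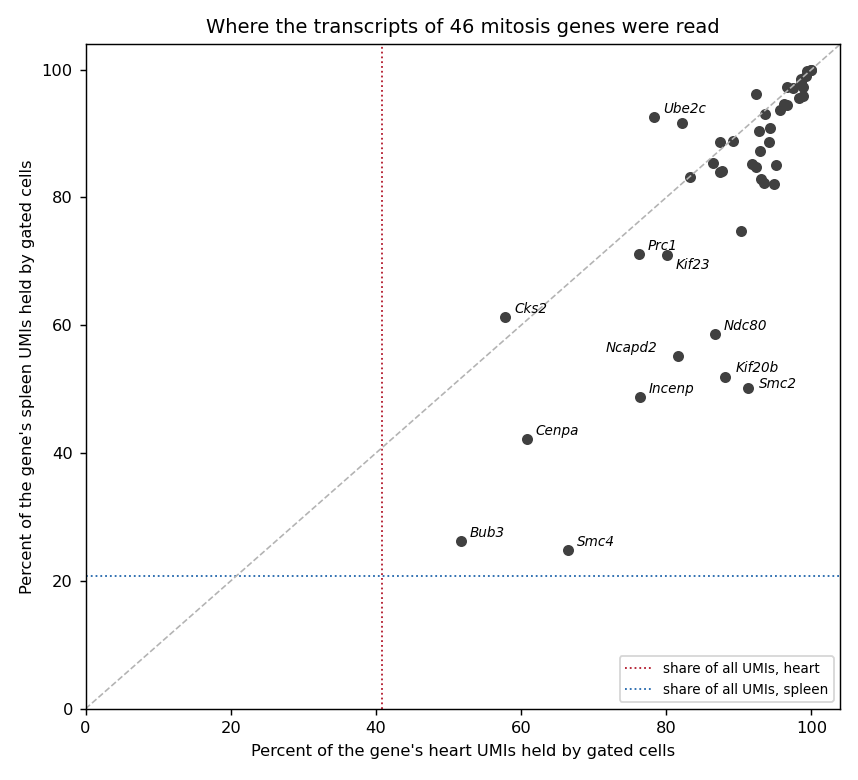
Percent of each gene's UMIs that lay in gated cells (at least 1 Top2a or Ccnb1 UMI), heart on the x axis and spleen on the y axis, 1 point per gene; dotted lines give the share of all UMIs held by gated cells (40.8% in heart, 20.8% in spleen). Most points lie in the upper right corner, and Bub3, Smc4, Cenpa, Incenp and Smc2 lie low on the spleen axis.

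Within gated cells the difference between tissues was smaller. Of the 46 genes 31 were higher and 15 lower in heart (27 and 19 with the other totals), and 2, Stmn1 and Ccnb2, were at least 2-fold higher, which is 4.35% against 6.92% of the 8108 genes with a mean of at least 5 CPM in gated cells. None was at least 2-fold lower, against 9.30%. The median log2 ratio was 0.22, and -0.11 over all genes. Top2a and Ccnb1 chose the cells, and without them 2 of 44 were at least 2-fold higher. Stmn1 was at 966 CPM (951 to 981) in heart against 462 CPM (449.6 to 474) in spleen, and Ccnb2 at 134 CPM (128 to 139) and 63.4 CPM (58.9 to 68.1). Birc5 was at 327 and 184 CPM and Cenpa at 294 and 169 CPM. In the opposite direction Prc1 was at 56.5 CPM (53.0 to 60.2) in heart against 82.2 CPM (77.1 to 87.5) in spleen, Cenpf at 59.6 and 76.3 CPM, Mxd3 at 13.4 and 23.8 CPM, and Plk1 at 15.5 and 20.1 CPM. Cdc20 (38 and 45.5 CPM) and Aurka (13.4 and 17.8 CPM) were also lower in heart.

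The direction of this median turned with the cells counted. It was -0.08 among cells with at most 5% mitochondrial UMIs, -0.62 with a gate of at least 2 Top2a and Ccnb1 UMIs, and -0.66 with a gate of at least 1 Mki67 or Birc5 UMI. In these 3 settings none of the 46 genes was at least 2-fold higher in heart, against 6.27%, 5.07% and 5.11% of all genes. At most 5% mitochondrial UMIs, 20 genes were higher and 26 lower, with 1 at least 2-fold lower (8.80% of all genes). With the gate of 2 UMIs 3 were higher and 43 lower, 9 of them at least 2-fold (8.83% of all genes). With the Mki67 or Birc5 gate 3 were also higher and 43 lower, 10 of them at least 2-fold (8.48%). The 46 genes counted in these settings include those of each gate, which chose the cells.

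**Figure D3:**
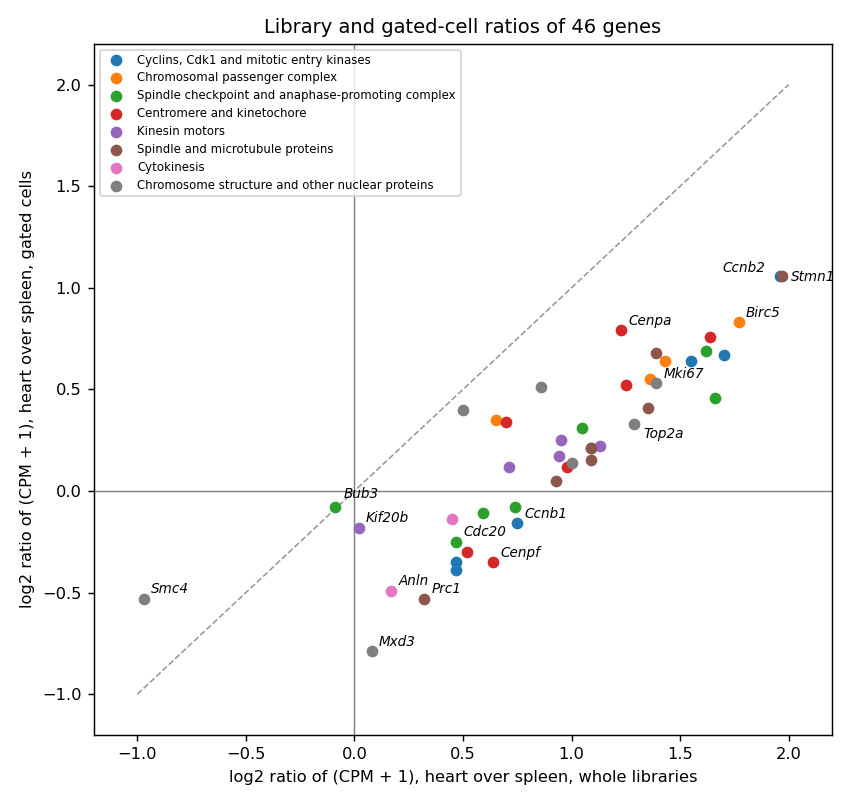
Log2 ratio of (CPM + 1), heart over spleen, in whole libraries (x axis) and in gated cells (y axis) for the 46 genes, coloured by role; the dashed line marks equal ratios. All points but Bub3 and Smc4 lie to the right of 0, and all but these 2 lie below the dashed line, with 31 above 0 and 15 below 0 on the y axis (27 and 19 with the other totals).

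The 2 genes of the gate divided gated cells into kinds whose ratios went in opposite directions. Each kind can mix cells of cluster 5 with cells low in these genes. Of all gated cells, cluster 5 held 47.1% in heart and 15% in spleen. The part of this makeup in the ratios of each kind was not tested. Cells with Top2a but no Ccnb1 UMI made up 66.7% of gated heart cells (710) and 78.3% of gated spleen cells (874). Among the other 44 genes, 43 were higher in heart in them and 31 at least 2-fold (9.34% of all genes), with a median log2 ratio of 1.36. None was at least 2-fold lower, against 10.4%. Cells with Ccnb1 but no Top2a UMI were few, 83 in heart and 128 in spleen. In them 29 of the 44 were at least 2-fold higher (11.1% of all genes) and 3 at least 2-fold lower (13.7%), with a median of 1.13. Cells with UMIs of both genes made up 25.5% (271 cells) and 10.2% (114 cells). In them all 44 genes were lower in heart, each with an interval of the ratio below 1, and 24 were at least 2-fold lower (10.4% of all genes). None was at least 2-fold higher, against 4.96%, and the median was -1.1. Prc1 was at 91.3 CPM in heart against 348 CPM in spleen in these cells, Cdc20 at 66.9 and 207 CPM, and Plk1 at 28.0 and 96.4 CPM. Ccnb2 (218 and 262 CPM) and Stmn1 (1369 and 1659 CPM) differed less. The 38 genes of DNA replication had a median of 0.11 in the same cells, with none 2-fold apart. Heart cells of this kind were deeper, at a median of 23221 UMIs against 17040.5. With the gate read at 4000 UMIs per cell, a setting added after seeing the data, 64 heart and 53 spleen cells held both genes, all 44 genes were again lower in heart, and the median was -1.15. The excess in the other kinds was smaller on that reading. In cells with Top2a but no Ccnb1 UMI, 6 of the 44 were at least 2-fold higher (6.97% of all genes), with a median of 0.47, and in cells with Ccnb1 but no Top2a UMI 16 were (12.0% of all genes), with a median of 0.69.

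The number of the 46 genes seen was then counted in each cell, a measure added after seeing the data. At 4000 UMIs per cell, the median cell of either library had UMIs of 2 of the 46 genes. At least 6 were seen in 542 of 3899 heart cells, or 13.9% (12.8 to 15%), and in 193 of 6494 spleen cells, or 2.97% (2.57 to 3.41%). Cells with 11 to 20 of the genes were 7.62% of heart cells (6.80 to 8.49%) and 0.647% of spleen cells (0.467 to 0.873%). Cells with over 20 were 1.92% (1.52 to 2.41%) and 1.26% (1.01 to 1.56%). The gap between libraries was wide at 11 to 20 genes and narrow at over 20. The cells with at least 6 held 63.0% of the UMIs of the 46 genes in heart and 34.5% in spleen. In spleen, 178 of 4397 cells with at most 5% mitochondrial UMIs were such cells (4.05%) and 15 of 2097 cells with over 5% (0.715%). In heart the shares were 14.0% and 12.4%. The part of mitochondrial content in the difference was not tested.

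**Figure D4:**
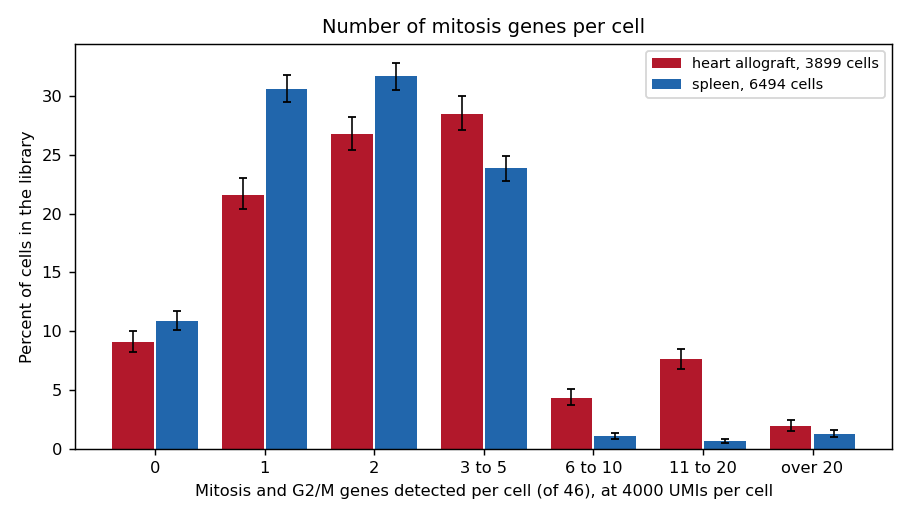
Percent of cells (y axis, from 0) by the number of the 46 genes with at least 1 UMI when each cell was thinned to 4000 UMIs (x axis), in 3899 heart allograft cells (red) and 6494 spleen cells (blue); bars have exact 95% binomial intervals. From the class of 3 to 5 genes (28.5% and 23.9%) up the heart bars are higher, with the widest gap at 11 to 20 genes (7.62% and 0.647%).

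In cells with at least 6 of the genes, all 46 genes were lower in heart, and 24 were at least 2-fold lower (8.78% of all genes) and none 2-fold higher (4.90%). The median log2 ratio was -1.04. The cells were chosen by these genes, so this is a description and no test. The pool also differed in its makeup, since cells with over 20 of the genes were 75 of its 542 heart cells and 82 of its 193 spleen cells. The 46 genes summed to 6853 CPM in heart against 11685 CPM in spleen. The 38 DNA replication genes summed to 4291 and 4589.6 CPM, with none 2-fold apart and a median of -0.10. The ratio of the mitosis sum to the replication sum was 1.60 in heart and 2.55 in spleen. T cell markers summed to 12039 and 11691 CPM. Erythroid markers were at 0.253 CPM in heart against 331 CPM in spleen. Without cells holding a haemoglobin UMI, the shares of cells with at least 6 genes were 13.5% in heart and 2.86% in spleen. The part of erythroid transcripts in the levels of the 46 genes in this pool was not tested. The Trbv19 segment of the TEa receptor made up 86.0% (82.0 to 89.5%) and 87.3% (77.3 to 94.0%) of the Trbv UMIs of these cells.

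The classes of that pool, by the number of genes seen, did not all show so low a level in heart. In cells with 6 to 10 genes, 170 in heart and 69 in spleen, 18 of the 46 genes were higher and 28 lower. The median was -0.14, and 1 gene was at least 2-fold higher (6.62% of all genes) and 2 at least 2-fold lower (11.6%). The interval of the ratio held 1 for 35 genes, and lay above 1 for 5 and below 1 for 6. Heart cells of this class were deeper, at medians of 17954 and 10372 UMIs. In cells with 11 to 20 genes, 297 in heart and 42 in spleen, 15 genes were higher and 31 lower, with a median of -0.23. None was at least 2-fold higher (6.45% of all genes) and 4 were at least 2-fold lower (12.7%), and the interval held 1 for 26 genes, lay above 1 for 4 and below 1 for 16. Median depths there were 20216 and 15709 UMIs, and erythroid markers were at 0.290 CPM in heart against 1224 CPM in spleen. The ratio of the mitosis sum to the replication sum was 0.850 in heart against 0.852 in spleen at 6 to 10 genes, and 1.67 against 1.42 at 11 to 20.

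Cells with over 20 of the genes numbered 75 in heart and 82 in spleen, and their median depths were 17392 and 16382 UMIs. All 46 genes were lower in heart, 15 at least 2-fold (9.08% of all genes), none was 2-fold higher (6.55%), and the median was -0.79. The interval of the ratio lay below 1 for 44 genes and held 1 for Ccnb2 and Bub1. The cells of each class were chosen by these same genes, so the values are a description and no test. Mxd3 was at 43.1 CPM in heart against 152 CPM in spleen, Prc1 at 160.4 and 472 CPM, Spc25 at 65.4 and 185 CPM, and Aurka at 35.7 and 109.5 CPM. Anln was at 14.8 and 46.7 CPM, on 22 and 72 UMIs. Ccnb2 (319 and 344 CPM), Cenpa (616 and 713 CPM), Stmn1 (1813 and 2296 CPM), Bub1 (60 and 77.1 CPM) and Birc5 (845 and 1114 CPM) had the ratios nearest to 1. Mki67 was at 569 and 945 CPM and Top2a at 728 and 1034 CPM. The mitosis sum over the replication sum was 2.91 in heart and 4.05 in spleen, above the ratios at 6 to 10 and 11 to 20 genes in both libraries. Erythroid markers were at 0 CPM in heart against 64.2 CPM in spleen in these cells.

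**Figure D5:**
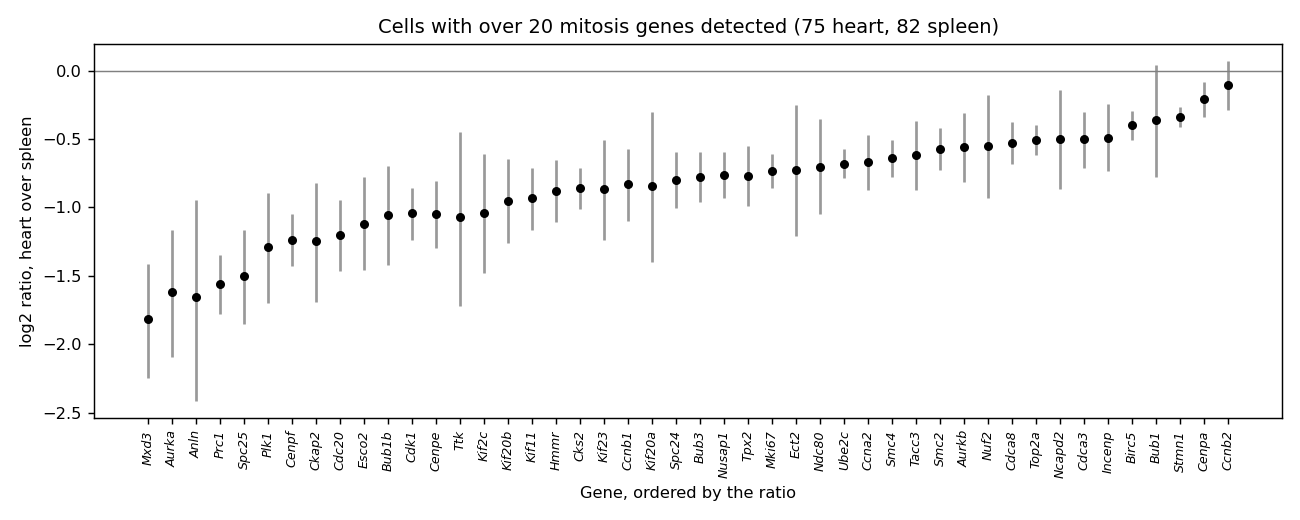
Log2 ratio of CPM, heart over spleen, of each of the 46 genes in cells with over 20 of them detected (75 heart and 82 spleen cells), ordered by the ratio; points are ratios and lines exact 95% intervals of counting error. All points lie below 0, from Mxd3 at the left to Ccnb2 at the right, and only the lines of Bub1 and Ccnb2 reach 0. The same genes chose the cells.

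Other genes of the cell cycle were read for comparison. Of 25 further regulators of mitotic entry and exit, 10 were at least 2-fold higher in heart in whole libraries (8.98% of all genes). None was at least 2-fold lower (10.5% of all genes), although 5 were lower. The median log2 ratio was 0.56. Of the 15 with a mean of at least 5 CPM, 5 were at least 2-fold higher, and the median of these 15 was 0.35. Lin54, the DNA-binding subunit of MuvB, was at 41.9 CPM in heart against 6.81 CPM in spleen, and its log2 ratio of 2.46 was 2.40 outside the gate (37.2 and 6.24 CPM). Cks1b, the paralog of Cks2, was at 89.4 and 35.6 CPM. Cdc25a, a phosphatase that activates cyclin-dependent kinases, was at 9.16 and 11.8 CPM, and Anapc11, a subunit of the anaphase-promoting complex, at 41.1 and 49.3 CPM. Of 46 further genes of spindle, kinetochore and chromosomes, 24 were at least 2-fold higher (8.98% of all genes), with a median of 0.84. None was at least 2-fold lower (10.5% of all genes), although 5 were lower. Of the 35 with a mean of at least 5 CPM, 20 were at least 2-fold higher. The nuclear lamina gene Lmnb1 was at 283 and 42.5 CPM and the centromere gene Cenpw at 55.6 and 16.1 CPM. Hjurp, the chaperone that loads Cenpa, was at 28.5 CPM in heart against 54.9 CPM in spleen, opposite to Cenpa itself. The motor Kifc1 was at 5.04 and 7.33 CPM.

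DNA replication and S phase genes were 37 of 38 higher in heart in whole libraries, with a median of 1.19. At least 2-fold higher were 24 of the 38 (63.2%, against 8.98% of all genes). In gated cells 38 of 38 were higher and 13 at least 2-fold (34.2%, against 6.92% of all genes), with a median of 0.88. The median of the 46 mitosis genes in the same cells was 0.22. Cdc6, which loads the replicative helicase, was at 23.4 CPM in gated heart cells and 8.64 CPM in gated spleen cells, and Rrm2, a subunit of ribonucleotide reductase, at 196 and 101 CPM. Pold1, the catalytic subunit of a replicative polymerase, was at 14.9 and 10.3 CPM. Ung, a repair glycosylase, was at 17.0 and 16.5 CPM, with an interval of the ratio of 0.853 to 1.24.

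Gated cells were also split by genes of T cell state at 4000 UMIs per cell. In spleen, 21.1% (16.5 to 26.3%) of 289 cells with a UMI of the cytotoxic gene Gzmb were gated, against 9.25% (8.54 to 10.00%) of 6205 cells without one. In heart the shares were 17.9% (15.5 to 20.4%) of 963 cells and 16.7% (15.3 to 18.1%) of 2936 cells, whose intervals overlap. Spleen cells with Gzmb held 12.7 UMIs of the 46 genes per cell, against 3.35 in those without. Spleen cells with Tcf7, a factor of naive and stem-like T cells, were gated in 8.90% (8.12 to 9.72%), against 12.6% (11 to 14.4%) of those without. For the chemokine receptor Cxcr6 the shares in spleen were 14.6% (11.1 to 18.7%) with and 9.50% (8.78 to 10.3%) without. In heart they were 16.1% (14.6 to 17.7%) and 17.9% (16.2 to 19.8%). Whether these splits differed between the libraries was not tested.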

How the data were processed

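The values are raw counts of UMIs per gene and barcode, which the authors deposited without normalization. Cell Ranger 3.0.2 wrote the wild-type matrices, per the file headers. The submitters' processing notes give other names or versions, namely Cell Ranger 7.0.0 and Seurat 4.0.0, and the mm10 build. How intronic reads and reads shared with near-identical copies were treated is not given in the sources used here.

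Barcodes with at least 1000 UMIs, 500 genes and at most 10% mitochondrial UMIs were kept (4074 heart, 6583 spleen). Scrublet (scanpy 1.11.5, expected rate 0.06) marked 0 in either library and is regarded as not having worked, so doublets can remain. Joint Leiden clustering (leidenalg 0.10.2, 2000 variable genes, 30 components, 15 neighbours, resolution 0.6) gave a cluster of 88 heart and 15 spleen cells with monocyte or macrophage markers, which was removed. Counts were summed per library as CPM. Ratios are log2 of (CPM + 1), which understates low genes; 2-fold counts use plain CPM. A count of 0, which allows 3 counts, limits a gene to 0.0710 CPM in heart and 0.0533 CPM in spleen. Intervals are exact 95% Poisson, conditional or Clopper-Pearson intervals and cover counting error only. Functions were tested on simulated data. Gene positions are from GENCODE M21.

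The members and lists were chosen with earlier results of these data known. All 46 genes may be named; full values were given for Top2a, Ccnb1, Mki67 and, per role group, the 2 with the highest mean CPM and the highest and lowest ratio; of each related list, the 2 highest and 2 lowest ratios. Examples in single classes of cells were chosen after their values were seen. Alternatives covered the cell filters, depth, totals, pseudocount and gate.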

Additional observations from a re-analysis of the deposited data

Results flagged for a closer look

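In data outside the comparisons, transcripts of the 46 genes were also present in barcodes with under 100 UMIs, which hold no called cell. They summed to 2063 CPM in heart, on 3313 UMIs, and to 1025 CPM in spleen, on 2918 UMIs. The cells of the same libraries held 2437 and 1254 CPM. In the removed cluster with monocyte or macrophage markers, 28.2% of 103 cells held a Top2a or Ccnb1 UMI, at a median depth of 21522 UMIs, and 4.85% did at 1000 UMIs per cell. The part of free RNA in the shares of cells was not tested.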

How the results depend on the processing

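The values were recomputed under 11 other settings and under 5 more that were added after seeing the data. No paired analysis was possible because each group holds 1 library and no result comes from a test. The 25 genes at least 2-fold higher in whole libraries became 15 at most 5% mitochondrial UMIs, and were within 1.5 times elsewhere. Their median of 0.96 became 0.67 there, 0.74 without the deepest cells (202 in heart and 25 in spleen, over 3 times the median), and 0.85 with totals lacking mitochondrial, ribosomal protein and Malat1 UMIs. The gated share of heart cells, 26.7%, became 23.2% without the deepest cells, 14.7% with a gate of 2 UMIs, 23.9% with the Mki67 or Birc5 gate, and 17.0% and 6.15% at 4000 and 1000 UMIs per cell. That of spleen cells, 17.0%, became 4.83%, 7.64%, 9.78% and 3.58% under the last 4. The gated count of 2 became 0 at most 5% mitochondrial UMIs, at 1000 UMIs, with the other totals and with either other gate, and 7 with mean per-cell CPM. The gated median of 0.22 reversed to -0.08 at most 5% mitochondrial UMIs, -0.06 at 1000 UMIs, -0.62 with a gate of 2 UMIs and -0.66 with Mki67 or Birc5, and moved to 0.55 with mean per-cell CPM. Ccnb2 in gated cells reversed to -0.02 at 1000 UMIs. With the other totals the share of higher genes among all genes 2-fold apart in gated cells went from 42.7% to 26.1%. The share of heart cells with at least 6 genes, 13.9%, became 9.71% without the deepest cells. It was 25.3% with at least 4 genes, 10.2% with at least 10, and 11.4% without Bub3, Smc4, Smc2, Cks2, Cenpa and Incenp. That of spleen cells, 2.97%, was 10.0%, 2.0% and 2.28% under these 3, and 4.12% at most 5% mitochondrial UMIs. The gate of 2 UMIs and the thinned depths count fewer gated cells by construction, while the Mki67 or Birc5 gate chooses cells by other genes. The causes of the other changes, the reversed medians among them, were not tested. Of 988 recomputed values of single genes, 528 stayed within counting error, 459 moved and 1 reversed. Only genes with a reported log2 ratio of at least 1 in size could count as reversed. Other changes of sign are counted among the rest. In gated cells 31 genes were higher in heart as reported, but 3 with either other gate, with the genes of each gate counted. In whole libraries only Kif20b, Anln, Smc2 and Mxd3 changed sign under any setting tried.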

Other observations

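Genes that act before S phase went in several directions. Of 17 G1 cyclins, kinases, E2F factors and pocket proteins, 6 were higher in heart by 2-fold or more (8.98% of all genes). Of the 6, 4 had a mean of at least 5 CPM. By as much, 2 of the 17 were lower (10.5% of all genes). The D-type cyclins Ccnd2 (133 CPM in heart against 306 CPM in spleen) and Ccnd3 (83.6 and 197 CPM) were the lower pair, and kept that direction in gated cells (108 and 293 CPM for Ccnd2, 95.7 and 198 CPM for Ccnd3). Ccne2, a cyclin of S phase entry, was at 10.1 and 1.80 CPM, and Cdk6, a partner of D-type cyclins, at 53.4 and 16.7 CPM.

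Of 7 cell cycle inhibitors, 2 were at least 2-fold higher in heart (8.98% of all genes) and none was 2-fold lower (10.5%). Only 1 of these 2, Cdkn1a, had a mean of at least 5 CPM. Cdkn1a, the p53-responsive inhibitor p21, was at 67.6 CPM in heart against 1.14 CPM in spleen, a log2 ratio of 5.0. In gated cells it was at 80.5 and 2.91 CPM, and outside the gate at 58.8 and 0.674 CPM. Cdkn1b was at 167 and 93.1 CPM, Cdkn2c at 18.2 and 16.8 CPM, and Cdkn2d at 90.9 and 109 CPM.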
